A study of Mus musculus with 1183 samples.

Results

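The 10 genes described here make the enzymes, and 1 enzyme partner, that turn arachidonic acid into leukotrienes, prostaglandins and thromboxane: Alox5, Alox5ap, Lta4h, Ltc4s, Alox15, Ptgs1, Ptgs2, Hpgds, Ptges and Tbxas1. They were chosen by symbol, and all 10 were among the 18072 genes of the count table. Their levels came from plate-based single-cell RNA sequencing of 1183 sorted immune cells of the distal lung of mouse pups at postnatal day 7. There were 1 female, with 598 cells, and 1 male, with 585 cells. The labels place both in hyperoxia, breathing air rich in oxygen, which injures the developing lung. The labels name 16 cell subtypes (mast cell, mast cell II, basophil, neutrophil, Mac I to Mac V, DC I to DC III, B cell, T cell, NK cell and IL cell) and give no strain, allele or other agent. Normoxic animals were not analysed here and each sex has 1 animal, so neither an effect of oxygen nor one of sex was estimated. The question asked of the data was which labelled subtype carried which enzyme message, per animal and per cell.

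Arachidonic acid is released from membranes by phospholipases. Arachidonate 5-lipoxygenase, made by Alox5, works with its membrane partner, made by Alox5ap, to form leukotriene A4. Lta4h then makes leukotriene B4, which attracts neutrophils, and Ltc4s makes leukotriene C4, the parent of the cysteinyl leukotrienes that constrict airways. In the cyclooxygenase branch, Ptgs1 (constitutive) and Ptgs2 (inducible) make prostaglandin H2. Hpgds, Ptges and Tbxas1 turn that into prostaglandin D2, prostaglandin E2 and thromboxane A2. Alox15 makes hydroxylated fatty acids and takes part in the synthesis of lipoxins and related mediators. Mast cells and macrophages are known sources of several of these lipids in the lung.

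RefSeq promoter windows, from 250 bases before to 50 after the start site, were matched for 8 of the 10 genes, leaving Alox15 and Alox5ap without one. Of the 8, 3 are shown as examples. Their genes differed in level between some of the macrophage classes, mast cells and basophils described below, and not all of these differences passed the tests. Ptgs2 lies at chr1:150099781-150100080 on the plus strand, Ltc4s at chr11:50238483-50238782 on the minus strand and Hpgds at chr6:65144681-65144980 on the minus strand, all in build GRCm38.p6. Each is printed in the gene's own direction, 5′ to 3′, and capitals mark letters that match a motif searched on both strands.
Ptgs2 promoter: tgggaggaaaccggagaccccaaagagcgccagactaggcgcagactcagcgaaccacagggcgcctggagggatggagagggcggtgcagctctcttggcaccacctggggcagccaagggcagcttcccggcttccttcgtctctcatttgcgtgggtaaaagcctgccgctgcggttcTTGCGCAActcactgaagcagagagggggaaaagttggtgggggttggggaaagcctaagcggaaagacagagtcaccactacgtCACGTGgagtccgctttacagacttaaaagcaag
Ltc4s promoter: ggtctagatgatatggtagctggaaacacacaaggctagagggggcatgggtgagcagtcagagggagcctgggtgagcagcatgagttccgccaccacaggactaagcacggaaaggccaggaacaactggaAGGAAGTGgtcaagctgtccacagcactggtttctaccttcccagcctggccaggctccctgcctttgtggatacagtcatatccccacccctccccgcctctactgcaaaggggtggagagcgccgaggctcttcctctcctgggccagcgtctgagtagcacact
Hpgds promoter: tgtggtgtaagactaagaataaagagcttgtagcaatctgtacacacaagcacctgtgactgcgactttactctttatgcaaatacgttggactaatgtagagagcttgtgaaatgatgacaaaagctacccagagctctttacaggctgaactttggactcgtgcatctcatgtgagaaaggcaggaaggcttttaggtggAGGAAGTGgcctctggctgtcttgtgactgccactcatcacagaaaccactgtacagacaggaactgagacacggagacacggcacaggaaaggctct
In the Ptgs2 window the capitals are TTGCGCAA, the palindrome bound by C/EBP factors, 69 bases before the start site, and CACGTG, an E-box, beginning at base 17. The palindrome occurs in 0.183% of 32851 RefSeq promoter windows of the same length and the E-box in 7.15%. The capitals in the Ltc4s and Hpgds windows are AGGAAGTG, an ETS-type motif of the kind PU.1 binds, which occurs in 4.07% of windows and in Hpgds begins 48 bases before the start site. The letters AGATAA, which GATA factors bind, are found in 11.2% of windows, and those of a cyclic AMP response element (TGACGTCA) in 1.79%; neither matched any of the 8. TATAAA, the TATA box letters found in 13.6% of windows, matched in Tbxas1 only. These are matches of letters and were not tested as binding sites.

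Counts ran from 16753 to 7560179 reads per cell, with a median of 1100966. For the 15 subtypes that held 5 or more cells in both animals, the cells of an animal were added up into 1 library, which gave 30 libraries of 6024429 to 235566546 reads. Mac I, with 1 cell, stayed out of the tests. Levels are given in CPM, the reads of a gene per 1000000 reads of its library. They are not corrected for transcript length, so they are compared between subtypes for 1 gene and not between genes. Of 15 lists of 4 defining markers, 14 were found in full at a mean of 10 CPM or more in their own subtype. In mast cell II, Fcer1a was at 0 in both animals and none of the 4 markers had its highest level there, so that label is used only as a name. The 4 Mac II markers were not highest in Mac II either. NK cells held all 4 T cell markers at a mean of 10 CPM or more, and 1 of these was highest there. Their sum was 3490 and 3728 CPM in NK cells and 1454 and 653 in IL cells, against 4980 and 4930 in T cells. The male neutrophil library held 732 CPM of 4 endothelial markers, against 29.6 in the female, and the Mac IV libraries held 559 and 168.8. The male DC I library held 10792 CPM of 4 epithelial markers, against 60.2 in the female. Mac IV also held 4943 and 8612 CPM of 4 platelet markers, of which Itga2b and Gp1bb were under 10 CPM. How the subtype labels were assigned is not given in the sources used here. If they rest on expression in these cells, differences between subtypes describe the labelled classes.

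The 5-lipoxygenase gene Alox5 was highest in basophils, mast cells and neutrophils. Its level was 837 CPM in basophils of the female animal and 213.998 in those of the male, a mean of 526 ± 441 (SD, n = 2). Mast cells had 575 and 304.3 CPM, and neutrophils 462 and 298.6. These 3 subtypes do not differ beyond their spread between animals. Mac II followed with 154.2 and 153.4 CPM and Mac III with 121.1 and 105.1. Mac IV, with 56.3 and 21.7 CPM, and Mac V, with 24.4 and 17.2, were lower than Mac III in both animals. No read of Alox5 was found in mast cell II, DC III or NK cells of either animal. DC I had 1 read in all. By CD45 plate the basophil level was 1451 and 499 CPM in the female and 309.04 and 104.1 in the male, so the plates of an animal also lay apart. In IL cells the female animal had 496 CPM, of which 65.4% came from 1 cell, and the male had 0.

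The gene of its partner, Alox5ap, was found far more widely. Basophils stood apart at 4177 CPM in the female and 6537 in the male animal, a mean of 5357 ± 1669 (SD, n = 2). Behind them came Mac V (1568 and 2176 CPM), neutrophils (1698 and 1595), DC I (1412 and 1622), Mac II (1396 and 1496), DC II (943 and 1571) and Mac III (945.2 and 831), whose ranges overlap in a chain. Mac IV, with 460 and 560 CPM, was below all of these in both animals. Mast cells had 338.01 and 647 CPM and mast cell II 113.5 and 242.96. DC III had 9.86 and 25.5 CPM, each from 1 cell, and IL cells had none. DC I thus carried the partner's message, 1517 ± 148.7 CPM (SD, n = 2), with 1 read of Alox5. The part of the epithelial markers of the male DC I library in these values was not tested, and the level of the female, whose library held 60.2 CPM of them, was 1412 CPM. Mast cells and Mac V stood in opposite order for the 2 genes.

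**Figure D1:**
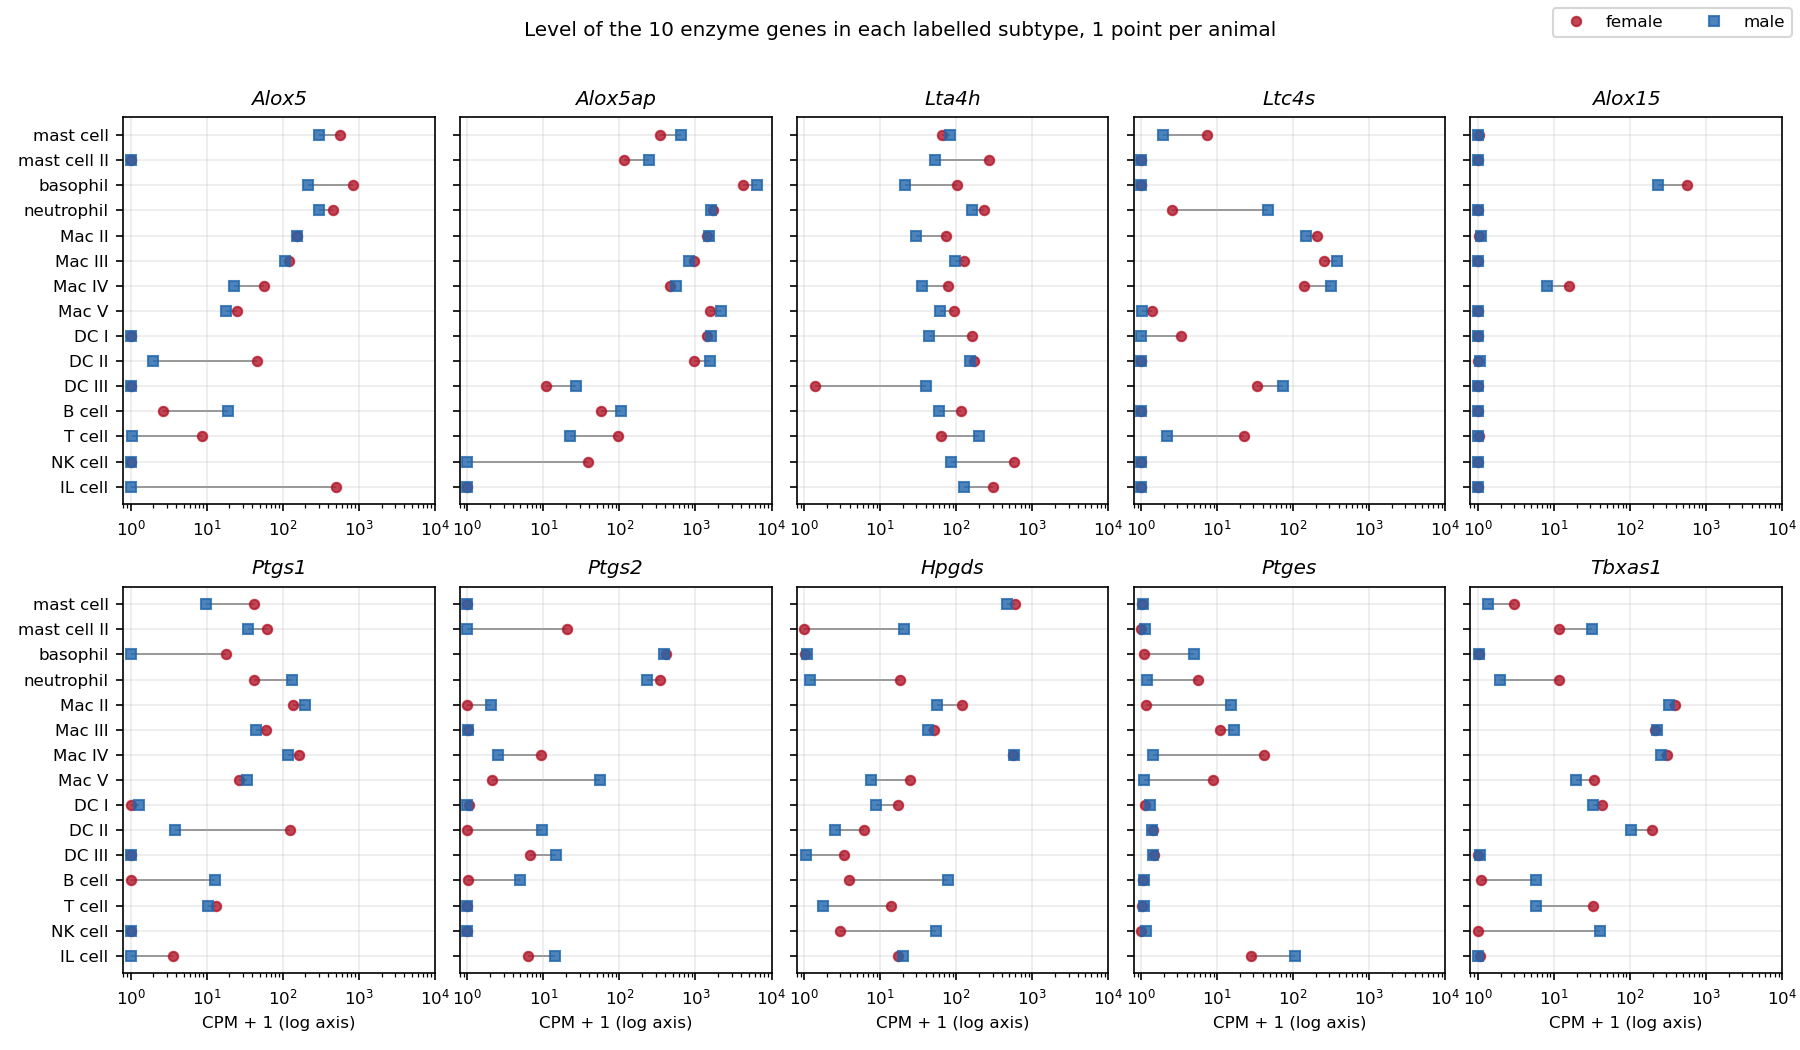
Level of each of the 10 genes (x axis, CPM + 1, log axis) in 15 labelled subtypes (y axis). Red circles are the female and blue squares the male animal, joined by a grey line. Alox15 and Ptgs2 are high in few subtypes, whereas Lta4h spans all 15, and long grey lines, as for Alox5 in IL cells (496 and 0 CPM), mark values that differ between the animals.

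The leukotriene A4 hydrolase gene Lta4h was found in all 15 subtypes. Its mean over the animals ran from 19.6 CPM in DC III to 324.6 CPM in NK cells, and in several subtypes the animals lay far apart. NK cells had 565 CPM in the female and 83.99 in the male, and mast cell II had 271.2 and 51.5. Neutrophils, with 228.4 and 160.6 CPM, and DC II, with 172.2 and 150, were closer together. Mac III had 123.8 and 95.97 CPM.

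The leukotriene C4 synthase gene Ltc4s was highest in 3 of the Mac classes. Mac III had 254.5 and 372.1 CPM, Mac II 208.3 and 148.2, and Mac IV 137.3 and 315.3, so these 3 overlap. The fourth of the tested Mac classes, Mac V, had 0.394 and 0.0217 CPM. Basophils had no read in either animal, which allows up to 0.0434 CPM by the limit of 3 counts over the libraries of both animals; every limit of a group at 0 reads below is set in this way. Mast cells had 6.42 and 0.943 CPM, of which 95% and 100% came from 1 cell. The values of neutrophils (1.59 and 45.5 CPM) and DC III (32.1 and 73.5 CPM) also rested on 1 cell in each animal, which held at least 71.7% of the reads.

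Basophils were the only tested subtype in which Alox15 passed 20 CPM in either animal. They had 555 CPM in the female and 234.99 in the male, a mean of 395 ± 226.1 (SD, n = 2). The next subtype, Mac IV, had 15.02 and 7.10 CPM, of which 99.9% and 99.8% came from 1 cell in each animal. The other 13 tested subtypes had at most 3 counts per animal, except Mac III with 4 in the male. Within basophils the level was above 100 CPM on every CD45 plate: 870 and 380.9 CPM on the plates of the female animal and 336.6 and 117.5 on those of the male. The basophil libraries also held 204.9 and 89.5 CPM of the eosinophil markers Ccr3 and Siglecf, and Mac II held 146.1 and 86.1; the eosinophil granule genes Epx and Prg2 are not among the genes analysed here. Their part in the Alox15 level was not tested.

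**Figure D2:**
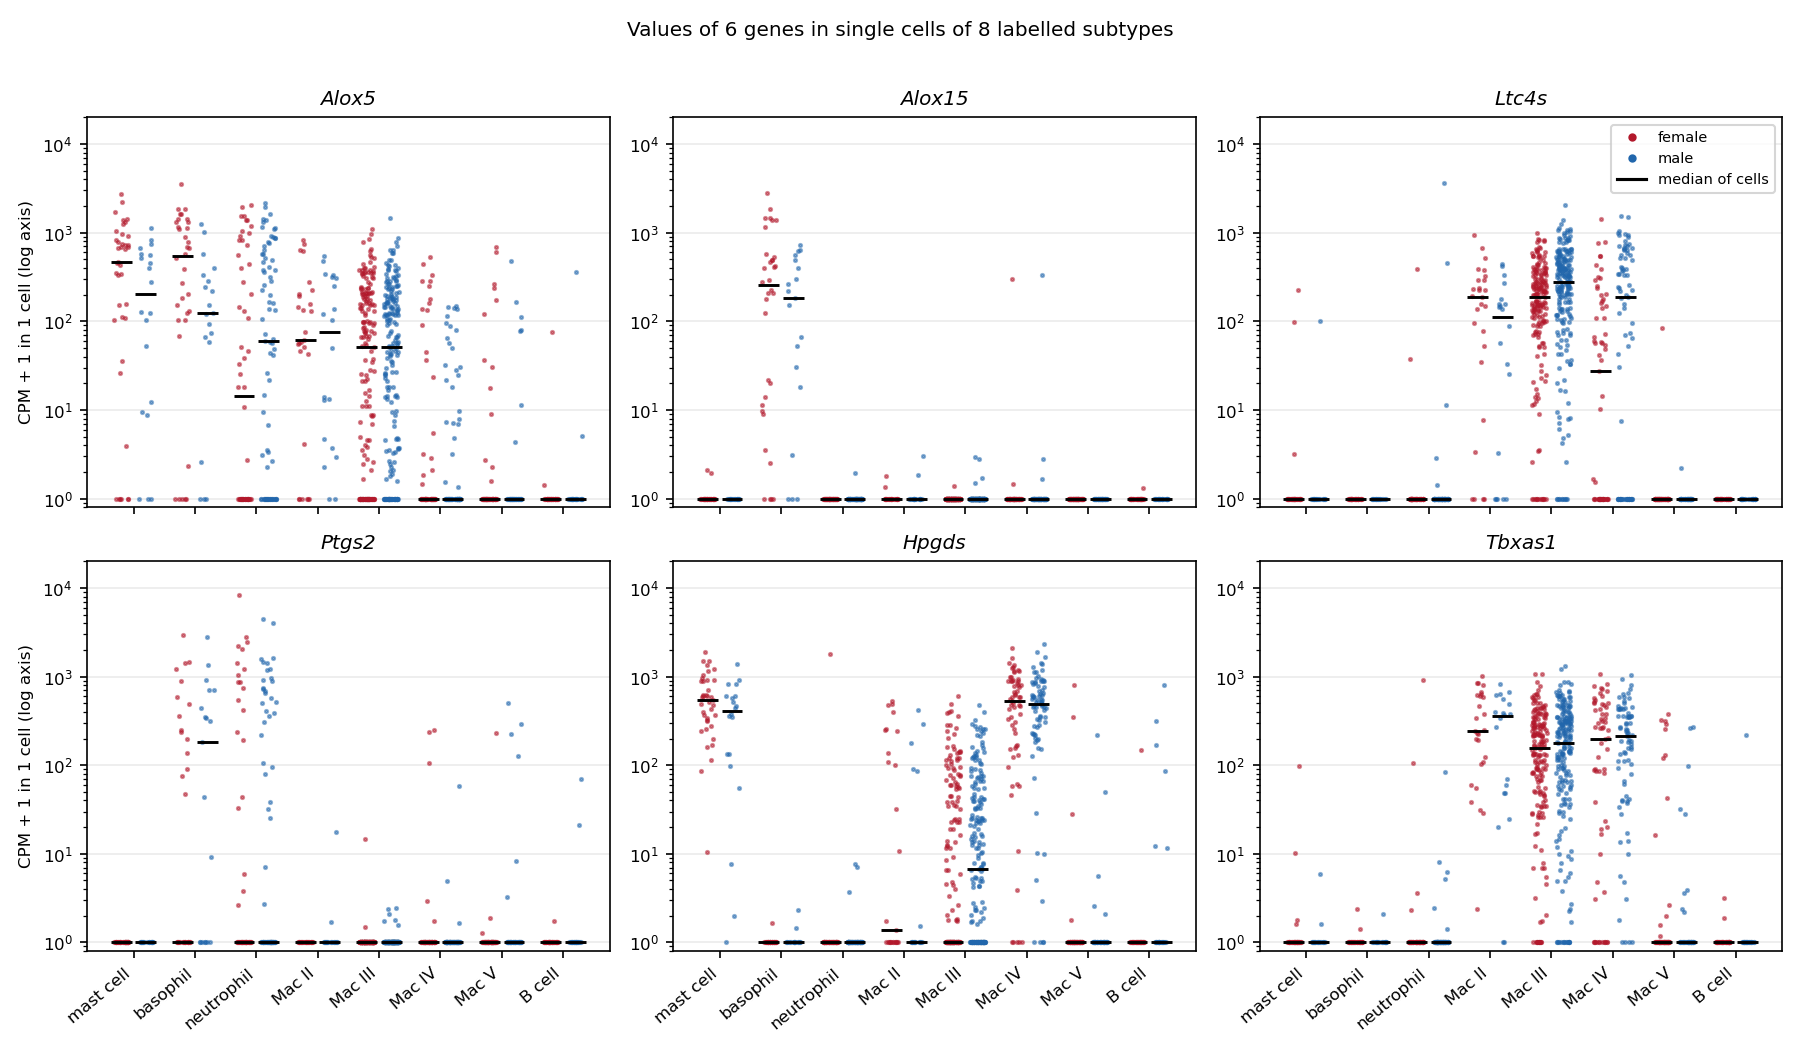
CPM + 1 (y axis, log axis) of 6 genes in single cells of 8 labelled subtypes (x axis), with red points for the female and blue for the male animal and black lines at the median of the cells. Points at 1 are cells without a read. Basophils and neutrophils split into cells with and without Ptgs2, whereas nearly all mast cells and Mac IV cells carry Hpgds.

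The cyclooxygenase genes were placed differently. Ptgs1, the constitutive form, was highest in Mac II (136.3 and 193.9 CPM) and Mac IV (162.9 and 117.2), which overlap. Mac III had 59.8 and 43.7 CPM. Neutrophils had 40.6 CPM in the female and 132.3 in the male, whose library also carried the endothelial markers named above; their part in this value was not tested. DC II had 123.4 CPM in the female, 91.5% of it from 1 cell, and 2.86 in the male. Mast cells had 40.5 and 8.85 CPM and mast cell II 62.1 and 34.5.

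Ptgs2, the inducible form, was found at over 100 CPM in 2 subtypes. Basophils had 409 and 380 CPM, a mean of 395 ± 20.4 (SD, n = 2), and neutrophils had 335.8 and 226.5, a mean of 281.1 ± 77.3 (SD, n = 2). The basophil level was less even by plate, at 889 and 144.4 CPM in the female and 330 and 439 in the male, and 1 cell held 45% of the reads of the female. Mast cells had no read of Ptgs2 in either animal, nor had T or NK cells. Mac III, the deepest libraries, had 9 reads in all. Mac V differed between the animals, at 1.09 CPM in the female and 54.6 in the male, with most reads of either in 1 cell.

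Among the terminal synthases, Hpgds, the haematopoietic prostaglandin D synthase gene, was shared by mast cells and Mac IV. Mac IV had 563 and 572 CPM, a mean of 567 ± 6.37 (SD, n = 2), and mast cells had 589 and 465, a mean of 527 ± 87.1 (SD, n = 2), so they do not differ beyond their spread. Mac II had 116.9 and 55.1 CPM and Mac III 49.6 and 41.1. Basophils had 3 reads in all, and mast cell II had none in the female; its 19.6 CPM in the male came to 99.4% from 1 cell. B cells had 2.91 and 75.8 CPM, and 1 cell gave 76.8% of the reads of the male.

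Tbxas1, thromboxane A synthase, followed the Mac classes other than Mac V. Mac II had 395 and 330 CPM, Mac IV 308.6 and 258.2, and Mac III 210.8 and 224.3. DC II had 196.1 and 102.1 CPM, DC I 42.3 and 32.2, and Mac V 33.1 and 18.4. Basophils had 3 reads and DC III 1 read in all. Ptges, which makes prostaglandin E2 downstream of Ptgs2, rested largely on single cells. Its highest mean, 65.9 CPM in IL cells, came from 1 cell in each animal, and 84.1% of the 40.5 CPM in Mac IV of the female came from 1 cell. Mac III had 10.1 and 15.9 CPM spread over more cells.

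Per cell, shares were counted after every cell was thinned to 100000 reads, which left out 5 shallower cells. A gene was counted as found from 10 CPM, which is 1 read at that depth. Intervals are exact Clopper-Pearson at 95% and cover counting error only. Alox15 was found in 26 of 34 basophils of the female (76.5%, interval 58.8% to 89.3%) and 15 of 19 of the male (78.9%, interval 54.4% to 93.9%), and in 0 of 39 and 0 of 20 mast cells. The 0 of 39 allows a share of up to 7.69% by the limit of 3 counts, and the exact upper bound is 9.03%. Ptgs2 was found in 44.1% of basophils of the female and 57.9% of the male, and in 30.9% and 38.5% of neutrophils. Those neutrophils with 10 CPM or more before thinning had a median of 875 and 654 CPM, so the subtype level came from part of the cells. Hpgds was found in 100% and 90% of mast cells and 88.9% and 93.7% of Mac IV cells. Ltc4s was found in 90.1% and 91.8% of Mac III, 81.5% and 70% of Mac II and 52.4% and 65.8% of Mac IV cells.

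B and T cells, which should hold little of these genes, give the background. The male B cell library also held 2323 CPM of 4 neutrophil markers, against 31.01 in the female. T cells held 2482 and 1798 CPM of 4 DC III markers, but 3 of these had a mean under 10 CPM, so the sum rested on the remaining marker. The part of these markers in the B and T cell shares was not tested. There the share at 10 CPM was 0% to 16% for each member in each animal, except Lta4h at 42.3% to 70%. Alox5 was found in 22.2% and 25.3% of Mac IV and 16.7% and 11.4% of Mac V cells, against 0% to 4% in B and T cells. The neutrophil cells were shallower, with a median of 616659 and 571915 reads per cell against 1131743 and 1471919 in B cells. Without thinning the shares of Alox5 in neutrophils were 50% and 60.3%, near the thinned 49.1% and 62.8%.

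**Figure D3:**
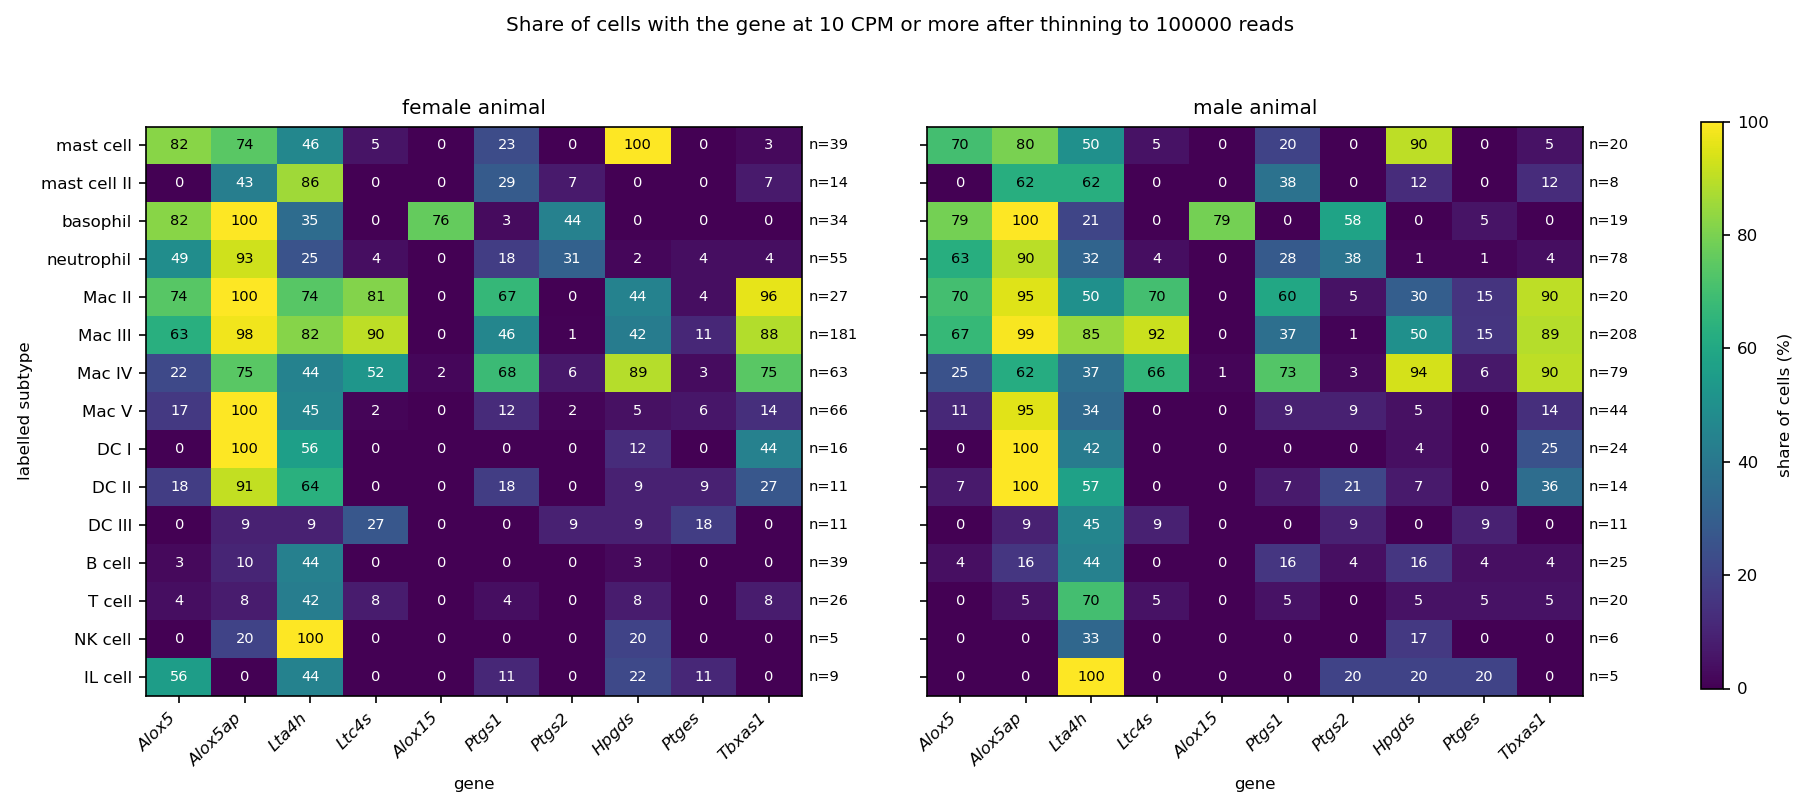
Share of cells (colour and printed value, in percent) in which each gene (x axis) was found at 10 CPM or more after thinning to 100000 reads, by labelled subtype (y axis) in the female (left) and male animal (right). The number of cells is given at the right of each row. Both animals have high entries for Alox15 in basophils (76.5% and 78.9%) and Hpgds in mast cells (100% and 90%).

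Genes of consecutive steps were then counted within the same cell. All of Alox5, Alox5ap and Ltc4s, the route to leukotriene C4, were found in 55.8% and 63.5% of Mac III and 66.7% and 50% of Mac II cells of the female and male animal. In mast cells the same set was found in 1 of 39 and 0 of 20 cells, and in neutrophils in 1 of 55 and 1 of 78. In basophils it was found in 0 of 34 and 0 of 19 cells, with exact upper bounds of 10.3% and 17.6%. The route to leukotriene B4, Alox5 with Alox5ap and Lta4h, was found in 53% and 57.2% of Mac III and 55.6% and 30% of Mac II cells. It was found in 28.2% and 30% of mast, 32.4% and 15.8% of basophil and 16.4% and 25.6% of neutrophil cells. Any cyclooxygenase gene together with Hpgds was found in 61.9% and 69.6% of Mac IV cells and in 23.1% and 20% of mast cells. Mac II had this set in 37% and 10% of cells and Mac III in 17.7% and 18.8%. In mast cells the cyclooxygenase was Ptgs1, since Ptgs2 was not found. Any cyclooxygenase gene together with Tbxas1 was found in 63% and 60% of Mac II, 52.4% and 64.6% of Mac IV and 42.5% and 34.1% of Mac III cells. A cyclooxygenase gene with Ptges was found in at most 15% of the cells of any of the 15 subtypes, which was in Mac II of the male.

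Within a subtype, the share of cells holding both genes of a pair was set beside the product of their single shares. In Mac III cells of both animals Alox5 and Ltc4s were found together in 60.2% of cells, where the product of their shares is 59.2%. In Mac IV cells Ptgs1 and Hpgds were found together in 65.5%, where the product is 65.1%. Since Ltc4s and Hpgds were each found in most of these cells, these joint shares had little room to leave the product. Alox5 and Alox5ap in Mac IV were found together in 21.8% of cells against a product of 16.2%. Ptgs1 and Ptgs2 were found together in 7 neutrophils, 5.26% of the cells, where the product is 8.50%. No test was made of these shares, because cells of 1 animal are not replicates.

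**Figure D4:**
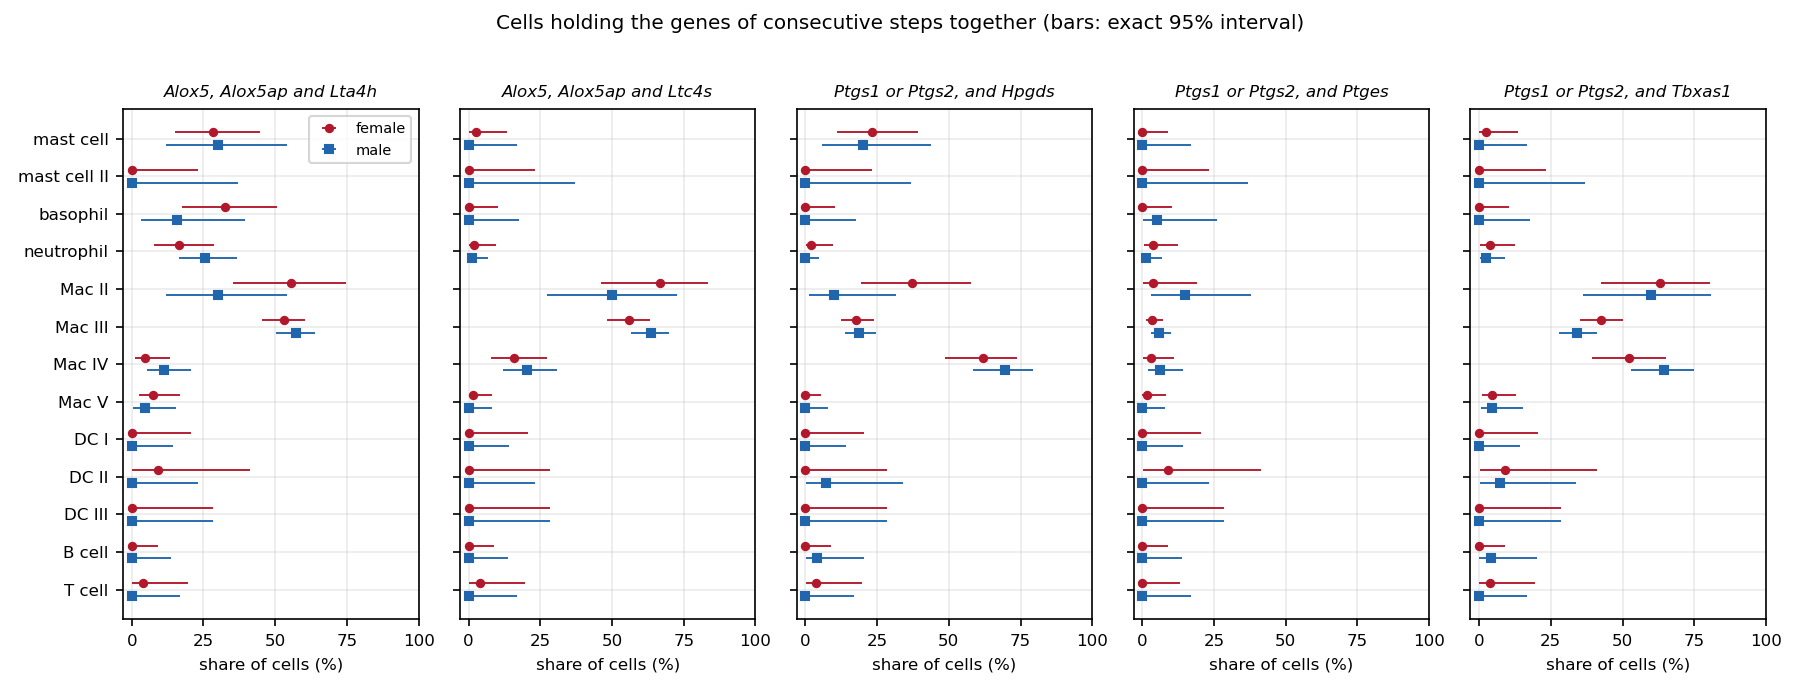
Share of cells (x axis, percent) holding all genes of a route at 10 CPM or more after thinning, by subtype (y axis). Red circles are the female and blue squares the male animal, and bars are exact 95% intervals for counting error. The leukotriene C4 set is highest in Mac II and Mac III (50% to 66.7%), and the set with Hpgds in Mac IV (61.9% and 69.6%).

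Differences between lineages were tested with edgeR's quasi-likelihood F test on counts summed per animal and lineage, with Benjamini-Hochberg adjustment over 15498 genes. The 4 comparisons share the lymphocyte libraries (B, T, NK and IL cells), and the lineage of mast cells and basophils also holds mast cell II. Lymphocytes were set as the common lower reference with earlier results of these data known, so the higher direction of the members is no independent result. Against lymphocytes, mast cells and basophils were higher in 3 of the 10 members and lower in 0, where 2.54% of all genes were called (1.52% higher and 1.02% lower). The same 3 were called without the mast cell II cells, where 3.53% of all genes were. The median log2 fold change was 2.79 over the members and -0.05 over all genes. Neutrophils were higher in 2 members, with 14.9% of all genes called (7.41% higher and 7.5% lower), and the median was 2.35 against -0.13. Macrophages (Mac II to Mac V) were higher in 2, with 2.72% called (1.92% higher and 0.794% lower) and a median of 3.33 against 0.08. Dendritic cells were higher in 1, with 2.09% called (1.43% higher and 0.665% lower) and a median of 0.51 against -0.05. Of the members not called, 2, 3, 3 and 1 had an unadjusted p under 0.05 in these comparisons in turn, as had 15.6%, 33.4%, 19.1% and 17.9% of all genes.

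Alox5ap was the member called in all 4. Lymphocytes had 60.1 and 54.8 CPM, against 1709 and 2651 in mast cells and basophils, 1698 and 1595 in neutrophils, 1004 and 943 in macrophages and 999 and 1237 in dendritic cells. No lymphocyte library came near the others. The log2 fold changes were 5.53 ± 0.41 (SE, edgeR adjusted p = 0.00121), 5.65 ± 0.42 (adjusted p = 0.000582), 4.24 ± 0.39 (adjusted p = 0.00328) and 4.57 ± 0.40 (adjusted p = 0.00362). Every alternative, including each left-out animal and cells of the shared sequencing run alone, kept these calls, with a highest adjusted p of 0.0288 (macrophages without lymphocyte replicate 2).

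Ptgs2 was called in 2 of them. Lymphocytes had 0.701 and 3.34 CPM, mast cells and basophils 153.6 and 133.5, and neutrophils 335.8 and 226.5. The log2 fold change was 7.94 ± 1.23 in neutrophils (edgeR adjusted p = 0.00555) and 6.40 ± 1.15 in mast cells and basophils (adjusted p = 0.0247). Both remained called without the cell with the most reads of Ptgs2 in each animal and subtype (adjusted p = 0.0120 and 0.0488), a fit that also takes nearly all Ptgs2 reads out of the lymphocytes. The neutrophil call held without any 1 of its 4 compared libraries, but neither call held among cells of the shared sequencing run (adjusted p = 0.121 and 0.344). For mast cells and basophils it was lost without each of the 4 libraries: adjusted p was 0.131 and 0.0605 without the lymphocyte library of the female and of the male, and 0.0827 and 0.0846 without their own.

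Alox15 was called in mast cells and basophils, where 203.8 and 82.5 CPM stood against 2 reads in the lymphocytes of both animals (edgeR adjusted p = 0.00408). The Alox15 call held with any 1 of the 4 compared libraries left out. The shared run alone gave an adjusted p of 0.0537. Its call in macrophages (3.32 and 1.98 CPM, adjusted p = 0.0223) rested on 1 Mac IV cell in each animal, which held 99.7% and 98.9% of the reads. Without those cells the adjusted p was 0.361, in the shared run 0.173, in thinned cells 0.0709, and without any 1 library 0.0834 to 0.133. Tbxas1, at 216.6 and 217.99 CPM in macrophages against 10.6 and 7.16 in lymphocytes, had an adjusted p of 0.0600.

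Subtypes were compared in the same way, with 15600 genes tested. Between mast cells and basophils 2 members were called, 1 in each direction, where 1.71% of all genes were (0.987% higher and 0.724% lower in mast cells). Alox15 was lower in mast cells, with 2 reads over both animals against 555 and 234.99 CPM in basophils (edgeR adjusted p = 0.00310). Hpgds was higher, at 589 and 465 CPM against 3 reads (adjusted p = 0.0388). With the animal as a block Hpgds had an adjusted p of 0.0505, and without the cell with the most reads 0.0594. Ptgs2, at 0 reads in mast cells, was at least 11941-fold lower pooled over both animals, yet its adjusted p was 0.0508. Alox5 did not separate the subtypes: it was higher in basophils of the female and in mast cells of the male. The Alox15 call was lost without the mast cell library of the male (adjusted p = 0.0594) and among cells of the shared run (0.0767). Hpgds was lost without each library (0.0798 to 0.243) and in the shared run (0.106). The median of the members was -0.16 on the log2 scale and that of all genes 0.15.

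Against mast cell II, mast cells had 0 members called by edgeR, where 0.788% of all genes were (0.647% higher, 0.141% lower); 4 had an unadjusted p under 0.05, as had 13.3% of all genes, and DESeq2 called 4, with 10.8% of all genes. The Alox5 message of mast cells, 575 and 304.3 CPM against 0 reads, was at least 5258-fold higher pooled over both animals (edgeR adjusted p = 0.0541). It was called with the animal as a block (adjusted p = 0.0474), and in each of the other 6 alternatives that left out no library; without any 1 library it was not (0.0914 to 0.363). Hpgds was 589 and 465 CPM against 0 and 19.6 (adjusted p = 0.268). The members' median was 1.37 against 0.13 for all genes.

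Between basophils and neutrophils 2 members were called, where 2.95% of all genes were (1.06% higher and 1.89% lower), and the median was -1.11 against -0.36. Alox15 was higher in basophils, since neutrophils had 1 read (edgeR adjusted p = 0.00232), and the call held in all 12 alternatives run. Ltc4s was lower, at 0 reads against 1.59 and 45.5 CPM (adjusted p = 0.0489). That value rested on 1 neutrophil in each animal. Without those cells the adjusted p was 0.222, and with the animal as a block 0.0576. It was also lost in the shared run (0.203), in a fit of basophils and neutrophils alone (0.193), with adjustment over the 11 comparisons (0.0557), without either basophil library (0.224 and 0.230) and without the neutrophil library of the male (0.137). Both subtypes carried Ptgs2, and it was not called between them.

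Among the Mac classes, Mac III against Mac IV gave 1 member called, with 0.263% of all genes called (0.0513% higher and 0.212% lower) and a median of -0.45 against 0.00. Mac IV against Mac V also gave 1, with 0.167% called (0.0962% higher and 0.0705% lower) and a median of 2.19 against 0.07. Mac III against Mac V gave 0 by edgeR, with 0.442% of all genes called (0.128% higher and 0.314% lower), 2 members and 9.4% of all genes at an unadjusted p under 0.05, and 2 members and 6.15% of all genes called by DESeq2; the median was 1.60, or 1.15 with the gene at 0 reads at its bound, against 0.14. Both calls were Alox15 (edgeR adjusted p = 0.0447 and 0.0348), higher in Mac IV, and both rested on the single Mac IV cells named above: without them the adjusted p was 1.00 and 0.695. Neither call held without any of the 4 libraries of its comparison, where adjusted p was 0.126 to 0.779 and 0.122 to 0.504, nor in the shared run (0.558 and 0.406). In thinned cells they were 0.0722 and 0.185. The first had 0.0573 with the animal as a block, and the second 0.0564 with only these subtypes in the fit. Ltc4s in Mac III, at 254.5 and 372.1 CPM against 0.394 and 0.0217 in Mac V, had an adjusted p of 0.153. Hpgds did not pass between Mac III (49.6 and 41.1 CPM) and Mac IV (563 and 572 CPM), although the ranges do not overlap (adjusted p = 0.751). The fit shares 1 estimate of spread over all subtypes, and the compared subtypes were also fitted alone. That gave 4 members called for Mac III against Mac IV (12% of all genes), 3 for Mac III against Mac V (9.23%) and 5 for Mac IV against Mac V (4.37%).

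Between DC III and DC II 3 members were called, 1 higher and 2 lower, where 4.58% of all genes were (0.878% higher and 3.71% lower), and the median was -3.05 against -0.13. Alox5ap was lower in DC III, at 9.86 and 25.5 CPM against 943 and 1571, a log2 fold change of -5.70 ± 1.36 (SE, edgeR adjusted p = 0.0184). Tbxas1 was lower, with 1 read against 196.1 and 102.1 CPM (adjusted p = 0.0144). Ltc4s was higher, at 32.1 and 73.5 CPM against 0 reads, but 1 cell held 71.7% and 100% of the reads. Without that cell its adjusted p was 0.198, and with only these subtypes in the fit 0.0824. None of the 3 held in the shared run (0.0763, 0.0619 and 0.152). Alox5ap was also lost without either DC III library (0.165 and 0.0647) and without DC II of the male (0.0548), Tbxas1 without either DC III library (0.135 and 0.0836), and Ltc4s without any library (0.0577 to 0.161).

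The wider pathway was read from a list of 50 further genes, of which 45 were in the table and 39 were tested between subtypes. Among phospholipases, Pla2g4a, which releases arachidonic acid, had its highest mean in basophils (84.3 and 101.9 CPM), Pla2g15, a lysosomal phospholipase, in Mac III (123.2 and 116.5 CPM), and Plaa, a phospholipase activator, in DC III (143.97 and 47.1 CPM). These orders did not hold in each animal. Pla2g4a was 132.9 CPM in mast cell II of the male, and Pla2g15 124.3 in Mac II of the female. Plaa was higher in NK and IL cells of the female (147.7 and 147.2 CPM) and in Mac III of the male (56.3). Of the other lipoxygenases only Alox8 passed a mean of 10 CPM, with 280 and 287.96 CPM in basophils and 19.5 and 1.56 in mast cells. The highest other synthases were Mgst1, a microsomal glutathione transferase, in neutrophils (761 and 628 CPM), Ptges3, a chaperone partner also known as a prostaglandin E synthase, in mast cell II (623 and 489 CPM), and Mgst3 in DC II (170.9 and 201.2 CPM). Of the enzymes that degrade or convert the products, Cyp4f18, which hydroxylates leukotriene B4, reached 2101 and 2241 CPM in basophils. It also reached 807 and 329.2 CPM in neutrophils and 447 and 385.7 in Mac V. Hpgd, which inactivates prostaglandins, reached 347.8 and 195.3 CPM in Mac IV, and Dpep2, which converts leukotriene D4, 248.4 and 225.4 CPM in Mac II. Of the transporters, Abcc1, which carries leukotriene C4, was highest in DC III (a mean of 167.2 CPM) and Abcc4, which carries prostaglandins, in DC II (118.2 and 50.3 CPM). Slco2a1, a prostaglandin transporter, had 0.356 and 94.6 CPM in neutrophils, whose male library held the endothelial markers.

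The receptor genes were spread over lymphoid, myeloid and dendritic classes. Ltb4r1, the leukotriene B4 receptor gene, was highest in IL cells (786 and 775 CPM) and Mac V (360 and 334.4), and neutrophils had 158.3 and 130. Fpr2, which also binds lipoxin A4, was highest in neutrophils (650 and 421 CPM). Ptger4, a prostaglandin E2 receptor gene, was highest in DC III (407 and 268.8 CPM). Cysltr1, the cysteinyl leukotriene receptor gene, had its highest means in IL cells (49.7 and 282.2 CPM) and DC I (57.4 and 199.2). This order held in the male only. In the female, NK cells (99.4 CPM), DC II (89.99) and Mac IV (80.7) were above both. Of the Cysltr1 reads in IL cells of both animals, 41.7% came from 1 cell. Ptger3 was highest in basophils (110 and 131.3 CPM), Ptgir in IL cells (101.9 and 142.2 CPM) and Tbxa2r, the thromboxane receptor gene, in T cells (74.8 and 83.9 CPM).

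**Figure D5:**
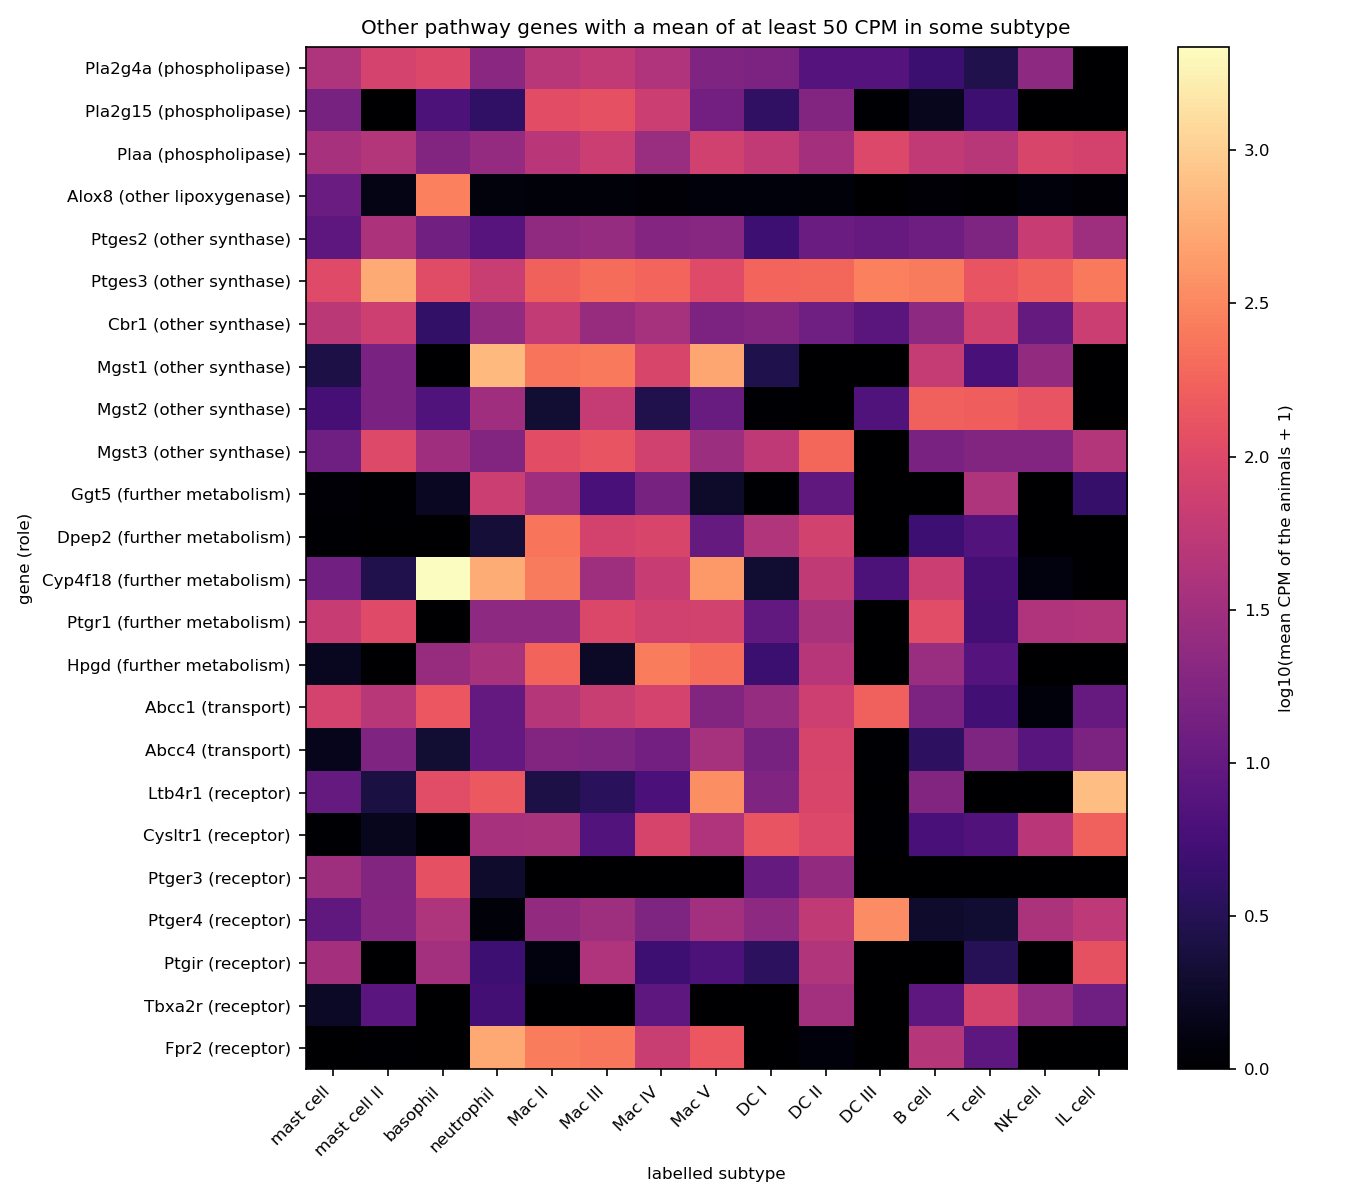
Colour gives log10(mean CPM of the animals + 1) of 24 further pathway genes (y axis, with role) that reached a mean of 50 CPM in some subtype (x axis). Alox8 is bright in basophils (mean 284.2 CPM, next 10.5 in mast cells). Cyp4f18 is brightest in basophils (mean 2171 CPM, next 568 in neutrophils) and Ltb4r1 in IL cells (mean 780 CPM, next 347.4 in Mac V).

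Of these 39 genes, between 0 and 6 were called in a comparison. Unlike the calls of the members, these calls were not followed through the alternative settings, so whether they hold there was not tested. Against lymphocytes the called share was 15.4% for neutrophils, 2.56% for macrophages and 2.56% for dendritic cells, near the 14.9%, 2.72% and 2.09% of all genes, and 15.4% for mast cells and basophils, where 2.54% of all genes were called. It was 10.3% between basophils and neutrophils, 2.56% between mast cells and basophils and 12.8% between DC III and DC II, where 2.95%, 1.71% and 4.58% of all genes were. Basophils against neutrophils gave 1 higher, Alox8 (edgeR adjusted p = 0.00499), and 3 lower, Mgst1 (0 reads, at least 15821-fold pooled over both animals, adjusted p = 0.0282), Fpr2 (0 reads, at least 12043-fold likewise, adjusted p = 0.0122) and Ptgr1 (adjusted p = 0.00109). Mast cells against basophils gave Ptgr1, which reduces prostaglandins and inactivates leukotriene B4, at 79.2 and 46.6 CPM against 1 read (adjusted p = 0.000514). DC III against DC II gave 5 lower and 0 higher (adjusted p = 0.000614 to 0.0356): Mgst3, Dpep2, Ptgr1 and Ltb4r1 had 0 reads in DC III and Cysltr1 had 1. Against lymphocytes, mast cells and basophils were higher in Pla2g4a, Alox8, Cyp4f18 and Ptger3 and lower in Cysltr1 and Fpr2. Neutrophils were higher in Pla2g4a, Cyp4f18, Ptger3 and Fpr2 and lower in Pla2g4c and Ptger4, but Ptger3 (78 reads, 1 cell in each animal) and Pla2g4c in lymphocytes (1 cell held at least 99.7% of the reads in each animal) rest on single cells. Macrophages gave Pla2g4a higher (adjusted p = 0.0451) and dendritic cells Fpr2 lower (adjusted p = 0.0387). Mast cell against mast cell II and the 3 comparisons of Mac classes gave 0 by edgeR, with 4 to 7 of the 39 and 7.89% to 13.3% of all genes at an unadjusted p under 0.05.

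For each member the genes with the most similar pattern were listed by Pearson's r of log2(CPM + 1) over the 30 libraries, among 8149 genes whose mean reached 50 CPM in some subtype. These libraries share animals and runs, and r is given as a description. The genes nearest to Alox15 were Lypd6 (0.91), Csrp3 (0.89) and Grm6 (0.88), all highest in basophils. Those nearest to Tbxas1 were Zfp703 (0.89), Myof (0.87) and Dpep2 (0.86), the last a member of the pathway list. Alox5ap was nearest to Cfp (0.86), Cd300a (0.86) and Spi1 (0.86), the last of which encodes the factor PU.1. Ltc4s was nearest to Cstb (0.85), Sh3bgrl2 (0.83) and Cracr2b (0.82), and Alox5 to Osm (0.82), Lilrb4a (0.81) and Camk1 (0.78). Lta4h was nearest to Lonp2 (0.81), Arhgap9 (0.76) and Snx4 (0.75), Ptgs1 to Slc16a10 (0.81), Sirpa (0.79) and Crat (0.78), and Ptgs2 to Chst13 (0.80), Padi4 (0.79) and F5 (0.78). The lowest values were those of Hpgds, with Ccl7 (0.71), Cd276 (0.70) and Slco2b1 (0.69), and of Ptges, with Cxcl3 (0.77), Stab2 (0.63) and Il5 (0.63).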

How the data were processed

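Raw read counts per gene and cell were used as the authors deposited them: whole numbers for 18072 genes and 1183 cells, made with STAR 2.5.2b and HTSeq 0.10 per the submitters' processing notes. Those notes name the build GRCh38, a human build, for these mouse cells, so no gene coordinates were taken from the files. Libraries were made with the Tn5 transposase without named molecular identifiers, so intervals and limits cover counting error only. Strand is not given in the sources used here, and overlapping or antisense genes cannot be separated. Groups came from the cell subtype label and replicates from the animal, the female being replicate 1 and the male replicate 2. The members, gene lists and comparisons were chosen with earlier results of these data known, and the routes counted within a cell after values were seen.

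Counts were summed per animal and subtype (30 libraries) or per animal and lineage (10 libraries). The test was edgeR's quasi-likelihood F test (edgeR 4.0.16, R 4.3.3, TMM, filterByExpr, 1 coefficient per group, all groups in the fit). It was first run on simulated counts with the same spread for every gene, set lower than that of these data. That run therefore does not check the test at the spread found here. A gene was called where its p, adjusted by Benjamini-Hochberg within a comparison, was under 0.05. The standard error is the log2 fold change divided by the square root of F. The common biological coefficient of variation was 1.15 for subtypes and 0.960 for lineages. The p-values rest on a spread pooled over the libraries of all groups in the fit, which includes the sampling of cells. With 2 animals in all, they do not cover the spread among other animals. Of the cells, 1173 came from CD45 plates, 4 from the CD31 gate and 6 from the mesench gate, and 885 from the sequencing run that both animals share. Since subtypes come from the same animals, replicate numbers pair the libraries. Over all pairs of the 15 subtypes the female minus male deviations of 7446 genes correlated with a median of 0.08 (-0.01 to 0.23). Alternatives were DESeq2 1.42.0, no filter, the animal as a block, each library left out, the shared run alone, thinned cells and the compared subtypes alone. Adjustment over the 11 comparisons together refits without the cell with the most reads of a member and the lineage without mast cell II were added after seeing the data. The genes named are the 10 members, in each role of the pathway list the 3 with the highest mean CPM and any called, and the 3 genes nearest each member. All columns of the count table matched a sample, no cells had identical counts and no doublet caller was run.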

Additional observations from a re-analysis of the deposited data

Results flagged for a closer look

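Of 110 differences of a member between groups of cells, the animals went opposite ways in 18. The 8 given here are those in which 1 of the compared groups reached 10 CPM in each animal; in the other 10 both groups were under 10 CPM in at least 1 animal. Each value is the female minus the male difference on the log2(CPM + 1) scale, and with 1 animal of each sex the difference was not tested. Between mast cells and basophils it was -1.05 for Alox5 and -2.63 for Lta4h, and between mast cell and mast cell II -2.70 for Lta4h. Between basophils and neutrophils it was 1.34 for Alox5. Between Mac III and Mac IV it was -5.46 for Ptges, most reads of which came from 1 Mac IV cell of the female. Against lymphocytes it was 6.21 for Hpgds in neutrophils, 3.37 for Hpgds in dendritic cells and 2.13 for Ptges in macrophages. The single Mac I cell, from the male and outside every comparison, held 1396 CPM of Alox5ap, 124.2 of Lta4h, 93.4 of Ptgs2, 45.1 of Hpgds and 148.4 of Tbxas1, above the limit that a count of 0 allows.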

How the results depend on the processing

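Counts of called members moved with the settings, while no log2 fold change named in the report changed sign in any alternative. In the order mast cell against basophil, mast cell against mast cell II, basophil against neutrophil, Mac III against IV, Mac III against V, Mac IV against V and DC III against DC II, the counts were 2, 0, 2, 1, 0, 1 and 3, and DESeq2 gave 6, 4, 4, 2, 2, 2 and 5, where it called 16.6%, 10.8%, 20.1%, 3.27%, 6.15%, 6.34% and 23.7% of all genes. Fitting the compared subtypes alone gave 4, 1, 1, 4, 3, 5 and 2, with 2.62%, 2.77%, 3.04%, 12%, 9.23%, 4.37% and 2.39% of all genes. Thinned cells gave 4, 1, 3, 0, 1, 1 and 3, with 2.86%, 1.19%, 5.38%, 1.06%, 1.5%, 0.717% and 5.73% of all genes. The shared sequencing run alone gave 0, 1, 1, 0, 0, 0 and 0, with 0.641%, 0.363%, 1.36%, 0.0595%, 0.178%, 0.0462% and 2.71%. Dropping the filter gave 1 for mast cell against mast cell II (0.616% of all genes), as did adjustment over the 11 comparisons together, which gave 1 for basophil against neutrophil. Without the cell with the most reads of each called member the counts were 1, 0, 1, 0, 0, 0 and 2. For mast cells and basophils, neutrophils, macrophages and dendritic cells against lymphocytes the counts were 3, 2, 2 and 1. DESeq2 gave 3, 5, 5 and 2 (13.9%, 37.7%, 16.5% and 16.4% of all genes), and thinned cells 4 for neutrophils (22.5%). The shared run gave 1, 3, 1 and 1 (1.55%, 8.4%, 1.61% and 1.17%), and refits without the top cell 1 for macrophages. Leaving out each library gave 0 to 1, 0 to 0, 1 to 2, 0 to 0, 0 to 0, 0 to 0 and 0 to 2 between subtypes, and 2 to 2, 2 to 4, 1 to 1 and 1 to 1 against lymphocytes, where a lone sample is assumed to vary like the other groups. With the replicate block, in which libraries of 1 animal are paired, the counts between subtypes were 1, 1, 1, 0, 0, 1 and 3. Over all genes the shares were 1.71%, 1.04%, 3.04%, 0.276%, 0.506%, 0.218% and 4.92%. Neutrophils against lymphocytes had 4 members with this block (14.4% of all genes). The same block moved no other count of members by over 1.5 times. Calls over all genes ranged with the tool, for Mac III against Mac IV from 41 with edgeR to 491 with DESeq2 and 1711 with the compared subtypes alone, for DC III against DC II from 715 to 3411 with DESeq2 (4.58% to 23.7%, and 2.39% with these subtypes alone), and for neutrophils against lymphocytes from 2310 to 5611. Leaving out 1 library took them for Mac III against Mac IV from 41 to 1 or 2 (without Mac III of the male or female) or 17 (without either Mac IV), and for Mac IV against Mac V from 26 to 7 or 3 (without Mac IV) or 0 (without either Mac V). DESeq2 also moved the median of all genes, most for Mac IV against Mac V (0.07 to 0.29 on the log2 scale). Leaving out the cell with the most reads moved 29 of 79 levels by over 1.5 times, and the shared run alone moved 14, whereas cells of the CD45 plates alone moved 0. Where other results changed, the cause was not tested. Depth limits mainly the small classes: NK and IL cells have 12 and 14 cells, and a level there can be that of 1 cell.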
